A study of Homo sapiens with 4 samples.

Results

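The regions described here were the A3B ChIP-seq peaks of human chromosome 6, split into short arm (6p) and long arm (6q) at base 59800000 of GRCh38. A peak was a member if its first column was chromosome 6, it was a short-arm peak if it ended before that base and a long-arm peak if it began at or after it. No peak crossed the boundary. In OMM2.3 the members were 2275 of 56167 peaks, 2005 on the short arm and 270 on the long arm. In 92.1 they were 7157 of 136678 peaks, 5758 on the short arm and 1399 on the long arm.

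ChIP-seq had been carried out in the established uveal melanoma cell lines OMM2.3 and 92.1, with an antibody against A3B and with normal rabbit IgG, giving 4 libraries and 1 library in each of the 4 groups. Neither line carried a labelled treatment, transgene or deletion, and both were grown in the same medium. One peak list per line was analysed, called on the A3B library with the IgG library of the same line as control. Each group being 1 library, the lines could not be tested against each other. Every interval below is a 95% interval for counting error only, exact except where stated. Such an interval counts peaks as independent and does not contain the variation between cultures, immunoprecipitations or regions of the genome.

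A3B (APOBEC3B) is a nuclear cytidine deaminase that turns cytosine into uracil in single-stranded DNA, with a preference for a cytosine that follows a thymine. Uveal melanoma arises from melanocytes of the eye, and extra copies of 6p and loss of 6q are among its common chromosome changes. In ChIP-seq a segment present in more copies yields more DNA in the A3B library and in the IgG library alike, and a peak list cannot tell the number of copies apart from the binding per copy.

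The sequences below show what lay under the strongest short-arm peak of each line and the strongest long-arm peak of 92.1, and under one of the places that both lines shared on each arm. They are GRCh38 plus-strand sequence, 5′ to 3′. Capitals mark TC, the dinucleotide in which A3B prefers to deaminate, and GA, its complement on the other strand.
OMM2.3, strongest short-arm peak, chr6:59436761-59436821: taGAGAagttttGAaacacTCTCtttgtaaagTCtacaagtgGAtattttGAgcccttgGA
92.1, strongest short-arm peak, chr6:34804677-34804737: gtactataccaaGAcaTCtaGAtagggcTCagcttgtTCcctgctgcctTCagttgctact
92.1, strongest long-arm peak, chr6:157310734-157310794: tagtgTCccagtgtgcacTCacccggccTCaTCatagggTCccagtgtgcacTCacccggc
shared place on the short arm, chr6:1518335-1518414: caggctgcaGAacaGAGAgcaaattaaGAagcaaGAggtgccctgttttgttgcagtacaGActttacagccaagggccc
shared place on the long arm, chr6:60609711-60609790: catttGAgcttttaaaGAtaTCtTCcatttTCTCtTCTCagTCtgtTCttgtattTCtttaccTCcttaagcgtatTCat

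The A3B peaks of both lines were crowded on the short arm and sparse on the long arm. In OMM2.3 the short arm held 33.6 peaks per Mb of sequence outside assembly gaps (interval 32.2 to 35.1) and the long arm 2.45 (2.16 to 2.75). In 92.1 the short arm held 96.6 peaks per Mb (94.1 to 99.1) and the long arm 12.7 (12 to 13.4). The short arm thus took 88.1% of the chromosome 6 peaks of OMM2.3 and 80.4% of those of 92.1 on 35.1% of the sequence.

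The other autosomes lay between the arms in both lines. Their density was 20.4 peaks per Mb in OMM2.3, against which the short arm was 1.65 times as dense (1.57 to 1.72) and the long arm 0.120 times (0.106 to 0.135). In 92.1 the other autosomes held 49.2 peaks per Mb, the short arm was 1.96 times as dense (1.91 to 2.01) and the long arm 0.257 times (0.244 to 0.271). Each arm's interval excluded equality with the other autosomes, on opposite sides, but it counts peaks as independent. Density also varied along the other autosomes. Between the 10th and 90th percentiles, their 5 Mb windows ran from 5 to 38.8 peaks per Mb in OMM2.3 and from 23 to 75.4 in 92.1. For the few peaks with q of at most 0.05, 3 in OMM2.3 and 2 in 92.1, the short arm was at 0.685 and 0.440 times the other autosomes, with intervals that include equality.

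The ratio of short-arm to long-arm density was 13.8 in OMM2.3 (12.1 to 15.7) and 7.62 in 92.1 (7.19 to 8.09). The ratio of 92.1 was 0.554 of that of OMM2.3 (0.482 to 0.637), an interval from counting error on the log scale. The order of the lines did not hold at 2 stricter thresholds, on 1 to 13 long-arm peaks per line. This ratio was 1.39 at p of at most 1e-05 and 1.06 at 8 or more fragments. The count of fragments is not corrected for background, and 8 or more took 11.3% of all OMM2.3 peaks but 1.14% of all 92.1 peaks. With the long arm counted from 68 Mb on, the ratio of the arms was 25.9 in OMM2.3 and 7.83 in 92.1. Of the arms, the long one carried the wider contrast between the lists. The 92.1 list had 2.87 times the peaks of the OMM2.3 list on the short arm, 5.18 times on the long arm and 2.41 times on the other autosomes.

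Chromosome 6 was compared with the 16 other autosomes that have at least 10 Mb on either side of the centromere. For that comparison the arms were cut at each chromosome's main tandem repeat array, which moved the chromosome 6 ratios only to 13.6 in OMM2.3 and 7.72 in 92.1. The fold between arms, taken in whichever direction was larger, ranked 1 of 17 for chromosome 6 in both lines. The median fold of the other chromosomes was 1.54 in OMM2.3 and 1.23 in 92.1, and their largest was 9.90 on chromosome 16 in OMM2.3 and 3.05 on chromosome 1 in 92.1. Among the 34 arms, 6q ranked 2 from the lowest density in OMM2.3 and 1 in 92.1, and 6p ranked 6 from the highest in OMM2.3 and 2 in 92.1.

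**Figure D1:**
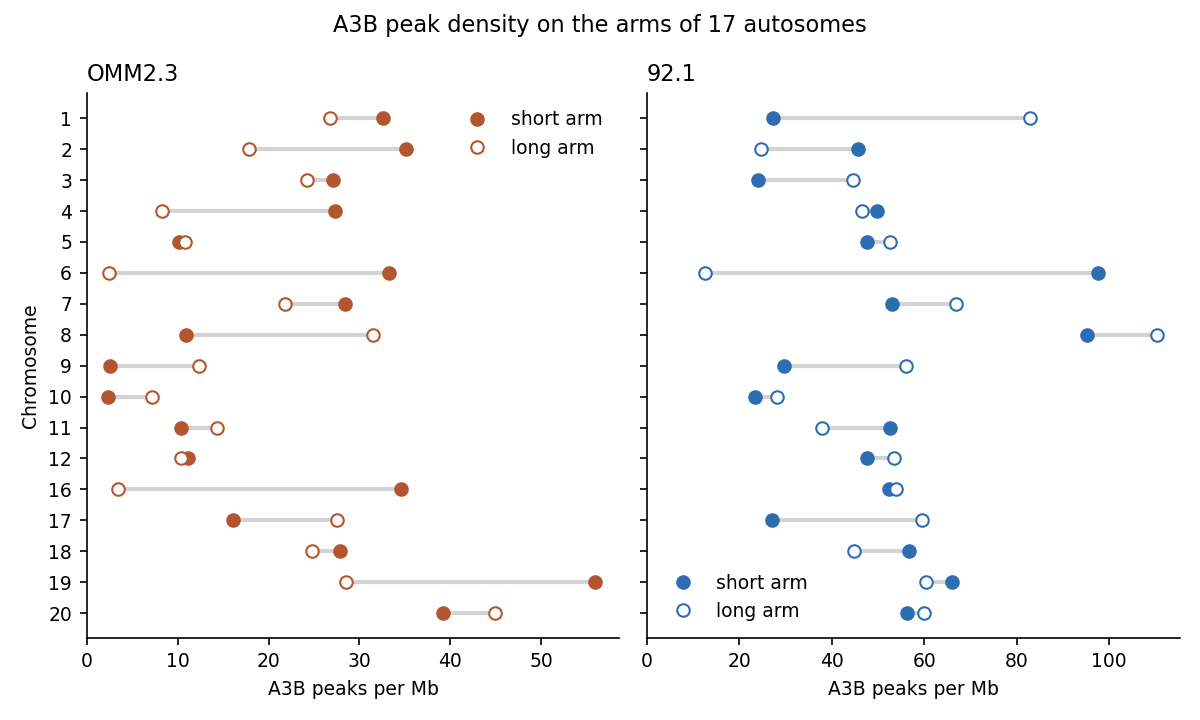
A3B peaks per Mb (horizontal axis) on the short arm (filled points) and the long arm (open points) of 17 autosomes, OMM2.3 on the left and 92.1 on the right, with 1 library per line and a grey bar joining the arms of a chromosome. The bar of chromosome 6 spans a ratio of 13.6 in OMM2.3 and 7.72 in 92.1.

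The arms were then followed in windows of 5 Mb, 12 on the short arm and 22 on the long arm. On the short arm the windows of OMM2.3 ran from 15.0 to 44.6 peaks per Mb with a median of 34.6, and those of 92.1 from 30.8 to 122 with a median of 106. On the long arm they ran from 0 to 21.5 with a median of 1.40 in OMM2.3, and from 7.88 to 20.4 with a median of 11.9 in 92.1. In 92.1 the arms did not overlap, and in OMM2.3 the long-arm window nearest the centromere lay within the range of the short arm.

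Windows of the same size on the other autosomes, 521 in number, had a median density of 17.8 in OMM2.3 and 48.4 in 92.1. Of the short-arm windows, 11 of 12 were above that median in either line, and 2 in OMM2.3 and 10 in 92.1 were above the 90th percentile of the other windows, 38.8 and 75.4. Of the long-arm windows, 20 of 22 in OMM2.3 and 22 of 22 in 92.1 were under their 10th percentile, 5 and 23 peaks per Mb.

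The extreme windows were not the same in the lists, apart from the lowest of the short arm. That one was 30 to 35 Mb in both lines, at 15.0 in OMM2.3 and 30.8 in 92.1. The densest was 35 to 40 Mb in OMM2.3, at 44.6, and 15 to 20 Mb in 92.1, at 122. On the long arm OMM2.3 was densest from the boundary to 65 Mb, at 21.5, and had no peak from 90 to 95 Mb (interval 0 to 0.738 per Mb), where 92.1 had 10.4. In 92.1 the long arm was densest from 70 to 75 Mb, at 20.4, where OMM2.3 had 1.40, and least dense from 165 to 170 Mb, at 7.88.

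Over all 34 windows the densities of the lines had a Spearman's rho of 0.722 and a Pearson's r of 0.942. Within the short arm these were 0.0769 and 0.62 over 12 windows, and within the long arm 0.122 and 0.444 over 22, lower within either arm than over both. The windows of both lines share the GC content, gene density and mappability of one reference sequence. The values are descriptions only, and the part of these features in them was not tested.

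**Figure D2:**
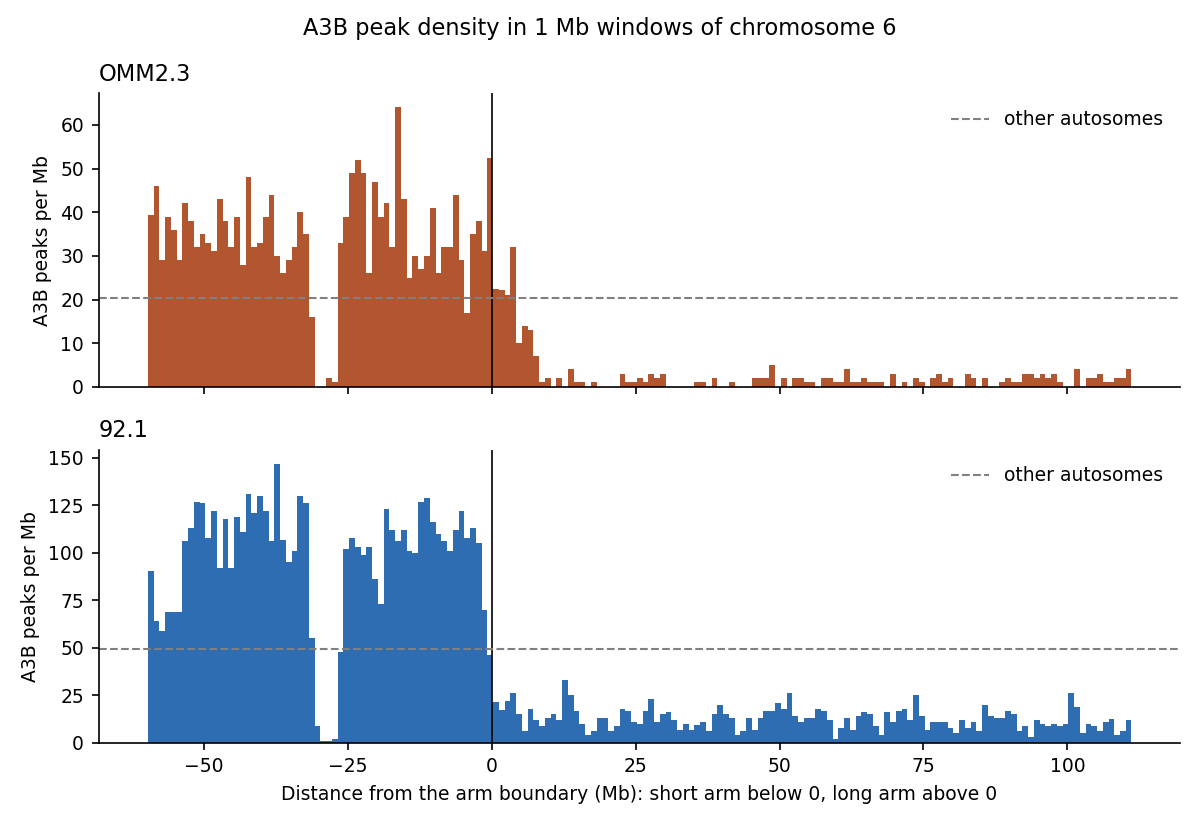
A3B peaks per Mb (vertical axis) in 1 Mb windows against the distance from the arm boundary in Mb, OMM2.3 above and 92.1 below, with 1 library per line. The dashed lines are the densities of the other autosomes, 20.4 and 49.2, above which most short-arm windows lie, with a gap of few peaks inside the short arm and a shoulder of OMM2.3 peaks just inside the long arm.

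The windows at the boundary itself differed between the lines. The last short-arm window and the first long-arm window held 34.0 and 21.5 peaks per Mb in the OMM2.3 list, against 90.6 and 20.2 in 92.1. From one 5 Mb window to the next the density of 92.1 dropped by 70.4 peaks per Mb at the boundary and rose by 69.0 at 35 Mb, the far edge of the gap inside the short arm. In OMM2.3 it dropped by 12.6 at the boundary and rose by 29.6 at 35 Mb. The OMM2.3 density fell further at 65 Mb, from 21.5 to 7.4 peaks per Mb, and at 45 Mb, from 44 to 30.6. The order of the steps changed with the window size, and with 10 Mb windows the boundary was the widest step in both lines.

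The plot by window showed 4 stretches that departed from the rest of their arm. Their limits were drawn after the windows had been seen, so they are described and not tested.

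The first was the long-arm side of the centromere, from the tandem array at 59.9 Mb to 68 Mb. OMM2.3 had 137 peaks there, 17.6 per Mb (14.8 to 20.9), and only 133 peaks, 1.30 per Mb (1.09 to 1.54), on the whole of the remaining arm. In 92.1 the same stretches had 132 peaks, 17 per Mb (14.2 to 20.2), and 1266 peaks, 12.3 per Mb (11.7 to 13). The stretch was 13.6 times as dense as the rest of 6q in OMM2.3 (10.7 to 17.4) and 1.38 times in 92.1 (1.14 to 1.65). The lists had nearly equal numbers of peaks in it, with 0.963 peaks of 92.1 for each of OMM2.3, against 9.52 on the rest of the arm.

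EYS, an extracellular matrix gene of photoreceptors whose 1987 kb lie inside that stretch, was the long-arm gene with the most peaks in both lines, 28 in OMM2.3 and 29 in 92.1. KHDRBS2, which encodes an RNA-binding protein, had 9 and 13, and PHF3, which encodes a PHD finger protein, had 5 and 4. Beyond 68 Mb the genes richest in 92.1 peaks had few or none in OMM2.3. NKAIN2, which encodes a protein that interacts with the sodium pump, had 21 peaks in 92.1 and 0 in OMM2.3, and KCNQ5, a potassium channel gene, had 15 and 1.

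The second stretch, 29 to 33 Mb, holds most of the major histocompatibility complex (MHC), the gene-dense region that encodes the HLA molecules and much of antigen processing. It had 3 peaks in OMM2.3, 0.750 per Mb (0.155 to 2.19), and 13 in 92.1, 3.25 per Mb (1.73 to 5.56). From 6 to 29 Mb the densities were 34.6 and 113, and in both lines the interval of the gap also lay below the density of the whole long arm. Beyond 68 Mb the long arm had 1.30 in OMM2.3, inside the interval of the gap, and 12.3 in 92.1, above it. On chromosomes 1 to 22, X and Y, 82.1% of the 32-base words sampled from the stretch occur once, but 4.23% do once the alternate MHC sequences of the assembly are counted. A read from such a word fits more than 1 sequence of that assembly equally well, and the part of this in the gap was not tested.

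The third was the first 6 Mb of the short arm. In OMM2.3 it had 36.4 peaks per Mb (31.7 to 41.5), 1.05 times the density of 6 to 29 Mb (0.901 to 1.22). In 92.1 it had 69.9 (63.3 to 76.9), 0.617 times (0.555 to 0.684). The median IgG background of its peaks was 1.69 fragments in OMM2.3, beside 1.58 from 6 to 29 Mb, and 0.939 in 92.1, beside 1.26, so in 92.1 background and density were both lower in the first 6 Mb. The part of the background in that difference was not tested.

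The fourth was the tandem array at the centromere, 58.6 to 59.9 Mb, nearly all of it on the short-arm side of the boundary. Human centromeres are built of long arrays of alpha-satellite repeats, and 2.24% of the 32-base words here occur once. The array held 59 OMM2.3 peaks, 48.0 per Mb (36.5 to 61.9), and 50 of 92.1, 40.7 per Mb (30.2 to 53.6). It was thus denser than the whole short arm in OMM2.3, at 33.6, and less dense in 92.1, at 96.6. The median IgG background of these peaks was 5.00 fragments in OMM2.3 and 1.82 in 92.1, above the medians of either arm.

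The peaks of both arms were weak. Each was described by the A3B fragments at its summit and by the IgG background expected there, both worked back from its fold enrichment and p-value. The background could not fall under the genome-wide mean of the IgG library, 1.05 fragments in OMM2.3 and 0.877 in 92.1, because the peak caller takes the largest of its genome-wide and local estimates. In OMM2.3 a short-arm peak had a median of 7 fragments and a long-arm peak of 5, with no peak under 4. In 92.1 the medians were 5 and 4, with no peak under 3.

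**Figure D3:**
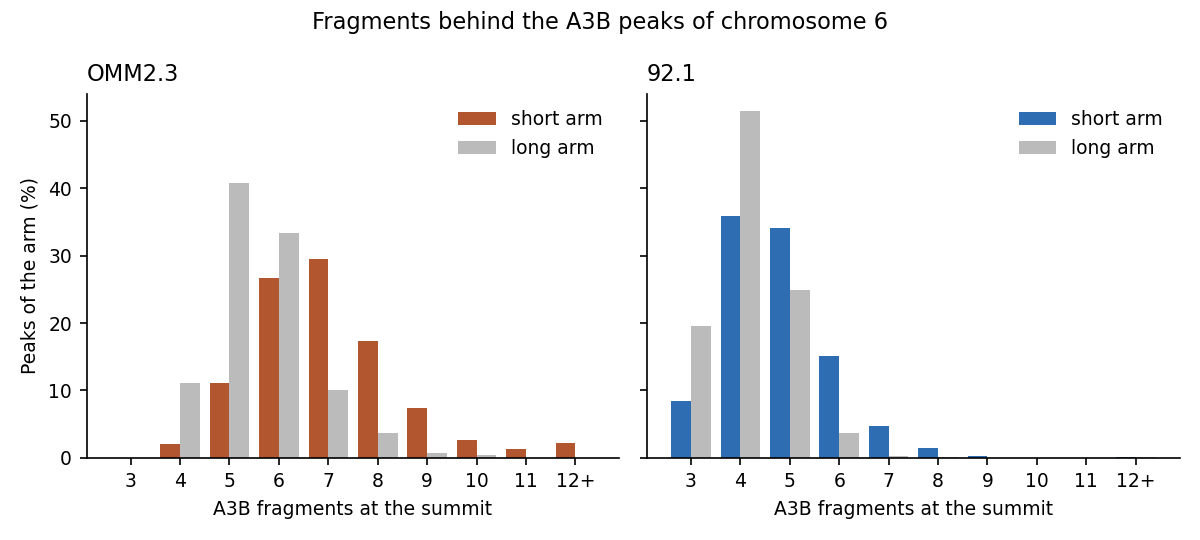
Percent of the peaks of an arm (vertical axis) by the number of A3B fragments at the summit (horizontal axis, 12 or more pooled), short arm in colour and long arm in grey, OMM2.3 on the left and 92.1 on the right. The long-arm bars sit to the left of the short-arm bars in both lines, with medians of 5 against 7 in OMM2.3 and 4 against 5 in 92.1.

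Peaks of 8 or more fragments took a larger share of the short arm in both lines. In OMM2.3 they were 615 of the short-arm peaks, 30.7% (28.7 to 32.7), and 13 of the long-arm peaks, 4.81% (2.59 to 8.09), where all OMM2.3 peaks on chromosomes 1 to 22, X and Y gave 11.3%. In 92.1 they were 100, 1.74% (1.41 to 2.11), and 2, 0.143% (0.0173 to 0.516), where all 92.1 peaks gave 1.14%. All 59 peaks of the tandem array in OMM2.3 and 15 of its 50 in 92.1 were of this kind. A place with more IgG fragments needs more A3B fragments to reach the same p.

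The IgG background under the peaks was also higher on the short arm. Its median was 1.64 fragments on the short arm and 1.05 on the long arm in OMM2.3, a ratio of 1.56, and 1.26 and 0.877 in 92.1, a ratio of 1.44. It sat at its lowest possible value in 1.45% of short-arm and 69.3% of long-arm peaks in OMM2.3, where all peaks gave 37.6%, and in 4.32% and 85.9% in 92.1, where all peaks gave 39.5%. Since the long-arm medians are at that lowest value, the ratios do not measure how far the IgG signal of 6q lay under the mean. The background was known only at called peaks. At those places it was higher on the short arm, as the density of peaks was, and its part in that density was not tested.

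**Figure D4:**
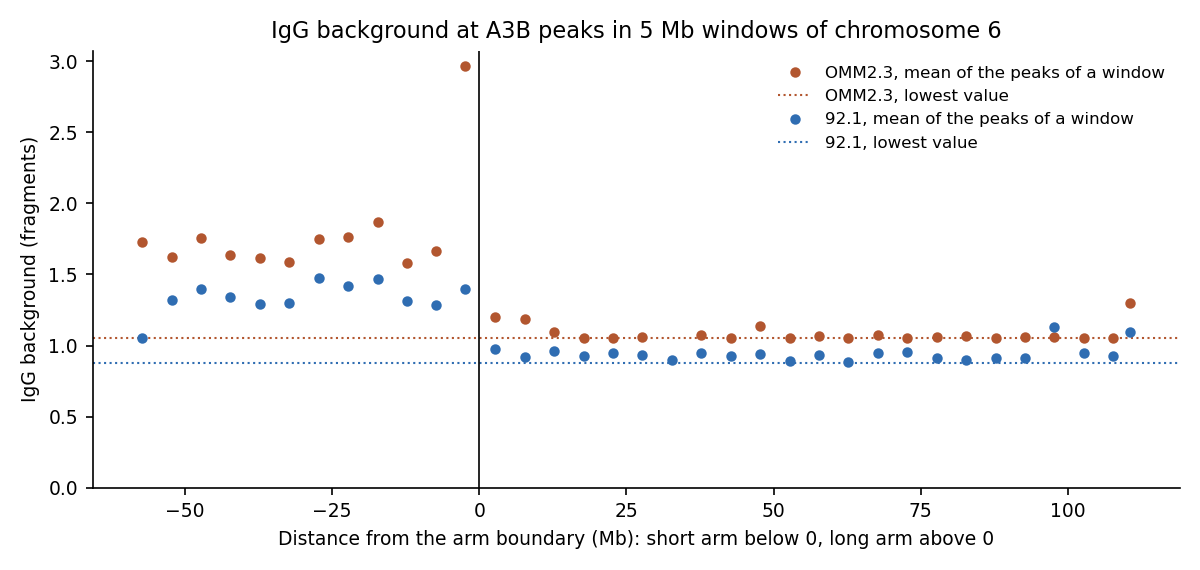
IgG background in fragments (vertical axis), as the mean over the A3B peaks of each 5 Mb window, against the distance from the arm boundary in Mb, for OMM2.3 and 92.1 with 1 library each. Dotted lines are the lowest values the background can take, 1.05 and 0.877, to which the long-arm windows of both lines lie close while the short-arm windows lie above.

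The median fold enrichment over IgG differed little between the arms in OMM2.3 and was higher on the long arm in 92.1. It was 2.61 on the short arm and 2.60 on the long arm in OMM2.3, and 2.44 and 2.66 in 92.1. The quartiles in 92.1 were 2.19 to 2.76 on the short arm and 2.4 to 3.15 on the long arm. The median −log10 p was 2.475 and 2.343 in OMM2.3, and 2.385 and 2.677 in 92.1. The peaks were 277 and 225 bp wide at the median in OMM2.3, and 274 and 223 in 92.1, the long-arm medians being the narrowest width each list contains.

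Few peaks passed a stricter threshold. At p of at most 1e-05 there were 12 short-arm peaks and 1 long-arm peak in OMM2.3, 0.599% and 0.370% of the arm's peaks against 0.827% of all, and 50 and 3 in 92.1, 0.868% and 0.214% against 0.853%. At q of at most 0.05 there were 3 and 0 in OMM2.3, where all peaks gave 0.424%, and 2 and 1 in 92.1, where all gave 0.151%. The 0 of 270 on the OMM2.3 long arm allows a share of up to 1.11% when taken as 3 counts, and of up to 1.36% by the exact interval. All 3 OMM2.3 peaks at that threshold lay in the tandem array.

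The strongest OMM2.3 peak of the short arm, chr6:59436538-59436985, was one of them. It had 18 fragments over a background of 1.91, a fold enrichment of 5.70 and a −log10 p of 9.59, and the words around its summit have a median of 375 copies in the genome. A 92.1 peak at chr6:59436492-59436860 overlapped it, with 7 fragments and a −log10 p of 4.41. The next peaks of this arm in OMM2.3, at chr6:58652132-58652384 and chr6:59708271-59708500, were also in the array, with −log10 p of 7.53 and 6.46.

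The strongest 92.1 peak of the short arm, chr6:34804501-34804893, lay in unique sequence within an intron of BLTP3A, which encodes a bridge-like lipid transfer protein. It had 10 fragments over a background of 1.05, a fold enrichment of 5.37 and a −log10 p of 7.80. The next, at chr6:23074812-23075204 and chr6:37590005-37590579, were intergenic and unique, with −log10 p of 6.17 and 6.04. None of these 3 places met a peak of OMM2.3.

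On the long arm most of the peaks named here fell on repeated sequence. In OMM2.3 chr6:170659407-170659740 and chr6:63445014-63445330 lay in introns of lncRNA genes on sequence of 80 and 17 copies, with −log10 p of 4.83 and 4.23. In 92.1 chr6:157310607-157310910, in an intron of TMEM242, which encodes a mitochondrial assembly factor, had 31 fragments but also a background of 10.5, for a fold enrichment of 2.78 and a −log10 p of 7.12. The next of that line were chr6:61246806-61247113, intergenic and unique, at 5.40, and chr6:145665119-145665366, in an intron of EPM2A, which encodes the glycogen phosphatase laforin, with 2859 copies, at 5.31.

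Sequence was taken as repeated when 50% or more of the 32-base words at a summit have further copies in the genome. Repeated peaks were 18.7% (17 to 20.5) of the short arm and 32.6% (27.0 to 38.5) of the long arm in OMM2.3, where all peaks gave 22.7%, and 11.3% (10.5 to 12.1) and 13.4% (11.6 to 15.3) in 92.1, where all gave 14.7%. The lists shared few places. Of the OMM2.3 peaks, 130 on the short arm, 6.48% (5.45 to 7.65), and 3 on the long arm, 1.11% (0.230 to 3.21), met a 92.1 peak by at least 1 base, where all OMM2.3 peaks gave 3.62%. The same places were 2.26% of the short-arm and 0.214% of the long-arm peaks of 92.1, where all gave 1.48%. Peaks covered 1.05% of the short arm in OMM2.3 and 3.08% in 92.1, and 0.0668% and 0.331% of the long arm. The chance to meet thus also differed between the arms. Coverage is lower than the chance of a meeting by 1 base, in which the widths of both peaks count. The share of peaks that would meet by chance was not worked out. The shared places are therefore not evidence that the lines share binding.

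All 3 shared places of the long arm lay before 68 Mb. They were chr6:60609711-60609956, whose sequence is shown above, with 8 fragments in OMM2.3 and 5 in 92.1, chr6:63824571-63824823 in an intron of EYS, with 6 and 4, and chr6:66280365-66280769, with 5 and 5, as OMM2.3 placed them. From 68 Mb on, 0 of 133 OMM2.3 peaks and 0 of 1266 of 92.1 were shared, which allows shares of up to 2.26% and 0.237% when taken as 3 counts, and of up to 2.73% and 0.291% by the exact interval. On the short arm, 28 of the 130 pairs were on repeated sequence and 2 in the tandem array. After the array pair, those with the highest lower −log10 p were chr6:784799-785257 in a lncRNA intron, and chr6:1518303-1518601, intergenic, whose sequence is also shown above, each with 3.46 in the weaker line.

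Over each arm as a whole, promoters took about the share of peaks that they take of the sequence. Peaks within 3 kb of a transcription start were 17.8% (16.1 to 19.6) of the short arm and 11.5% (7.94 to 15.9) of the long arm in OMM2.3, where all peaks gave 21.3%, and 17.6% (16.7 to 18.6) and 14.6% (12.8 to 16.5) in 92.1, where all gave 21.1%. Such sequence makes up 18.8% of the short arm and 12.6% of the long arm, within or close to the intervals of the peaks. The short-arm share includes the MHC region, with 159 coding genes but only 3 peaks of OMM2.3 and 13 of 92.1. A peak counted if any of its bases lay within 3 kb, while the sequence was counted base by base. The part of either in the likeness of the shares was not tested. Protein-coding genes make up 42.2% of the short arm and 42.5% of the long arm. Peaks within them were 42.0% (39.8 to 44.1) and 33.3% (27.7 to 39.3) in OMM2.3, and 42.9% (41.6 to 44.2) and 43.9% (41.3 to 46.5) in 92.1. The interval of the OMM2.3 long arm lies below its share of sequence. The stretch from the array to 68 Mb, with 137 of these OMM2.3 peaks, has 8 coding genes. From 68 Mb on, OMM2.3 had 36.84% (28.65 to 45.64) in coding genes, an interval that includes the share of the long arm. Promoter peaks there were 18.05% (11.92 to 25.65).

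The base composition of the peaks followed the line more than the arm. The mean GC content around summits was 45.9% ± 8.35 (SD over 2005 peaks) on the short arm and 43.0% ± 9.16 (270 peaks) on the long arm in OMM2.3, and 41.5% ± 8.59 (5758 peaks) and 40.1% ± 8.32 (1399 peaks) in 92.1. In OMM2.3 the long-arm peaks from 68 Mb on had 46.1% ± 9.46 (133 peaks). The arms themselves have 41.7% and 38.5%. All peaks on chromosomes 1 to 22, X and Y had 46.15% in OMM2.3 and 42.29% in 92.1, so this difference between the lists was not particular to chromosome 6. TC and GA together made up 12.4% and 11.9% of the dinucleotides around summits in OMM2.3 and 12.1% and 12% in 92.1, against 12.1% and 11.7% of the arms, with an SD of 2.29 to 2.42 between peaks. In the 61 bases printed for the strongest peaks, TC or GA stood 9 times in OMM2.3 on the short arm, and 6 times on either arm in 92.1.

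The genes of the arms differed with them, most of all in OMM2.3. A gene was counted if a peak overlapped its body or the 3 kb on either side. On the short arm 287 of 619 protein-coding genes had an OMM2.3 peak, 46.4% (42.4 to 50.4), and 401 a 92.1 peak, 64.8% (60.9 to 68.6). On the long arm these were 52 of 432, 12% (9.12 to 15.5), and 268, 62% (57.3 to 66.6). The near equality of the arms in 92.1 went with longer genes on the long arm, with a median span of 60.9 kb against 21.4 kb. Per Mb of gene span the arms had 97.2 and 13.4 peaks of 92.1, and 33.2 and 1.97 of OMM2.3. The short-arm values, also where used below, include the MHC region from GABBR1 to KIFC1. That region has 159 coding genes but held only 3 peaks of OMM2.3 and 13 of 92.1, and its part in the near equality was not tested.

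Genes of DNA replication and of its stress response stood on both arms. On the short arm 8 of 12 had an OMM2.3 peak and 10 of 12 a 92.1 peak, and on the long arm 1 of 8 and 5 of 8. All coding genes gave 46.4% and 64.8% on the short arm, and 12% and 62% on the long arm. The median spans of the lists were 27.9 and 95.2 kb, against 21.4 and 60.9 kb for all coding genes of the arms. PRIM2, the large subunit of primase, had 13 peaks in OMM2.3 and 37 in 92.1 over 332 kb. It lies between 57 and 58 Mb, where 51.8% of the sampled 32-base words occur once, beside 86.1% from 33 Mb to the tandem array. CCND3, which encodes cyclin D3, had 6 and 13, and POLH, which encodes the lesion-bypassing polymerase eta, had 1 and 6. MCM3, a subunit of the replicative helicase, had 0 and 3, and GMNN, which encodes the licensing inhibitor geminin, had 1 and 1. MDC1 and MSH5, which act in the DNA damage response and in meiotic recombination, lie within the MHC gap and had no peak in either line.

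Of the long-arm replication genes, ORC3, a subunit of the origin recognition complex, had 1 peak in each line and was the only one with a peak in OMM2.3. REV3L, the catalytic subunit of polymerase zeta, had 0 peaks in OMM2.3 and 3 in 92.1, and MCM9, a helicase of homologous recombination, 0 and 2. MMS22L, which protects stalled forks, CCNC, which encodes cyclin C, and the histone deacetylase gene HDAC2 had none. Per Mb of gene span, the short-arm list had 40.9 and 118 peaks and the long-arm list 1.22 and 9.73, beside 33.2 and 97.2 for all coding genes of the short arm and 1.97 and 13.4 for those of the long arm.

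Genes of melanocytes and tumour growth on the short arm had an OMM2.3 peak in 7 of 10 and a 92.1 peak in 10 of 10, where all coding genes of the arm gave 46.4% and 64.8%. Per Mb of gene span the list had 45.6 and 133 peaks, beside 33.2 and 97.2 for all coding genes of the arm. RREB1, a transcription factor that responds to RAS signalling, had 5 and 21 peaks, E2F3, a transcription factor of S-phase entry, had 5 and 10, and MAPK14, which encodes the kinase p38 alpha, had 6 and 13. IRF4, a pigmentation and lymphocyte transcription factor in the first 6 Mb, had 2 and 1. TFAP2A, a neural crest transcription factor, had 0 and 6.

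Genes linked to tumour suppression on the long arm had an OMM2.3 peak in 2 of 13, 15.4%, and a 92.1 peak in 9 of 13, 69.2%. All coding genes of the arm gave 12% and 62%. The median span was 150.4 kb in the list and 60.9 kb over all coding genes of the arm. ARID1B, a subunit of the SWI/SNF chromatin remodeller, had 1 and 5 peaks. SASH1, which encodes a scaffold protein, had 0 and 6, and BACH2, a lymphocyte transcription repressor, 0 and 5. TNFAIP3, which restrains NF-kappaB, LATS1, a kinase of the Hippo pathway, MAP3K7, which encodes the kinase TAK1, and the ephrin receptor gene EPHA7 had none in either line. The list had 1.13 and 9.02 peaks per Mb of gene span, beside the 1.97 and 13.4 of all coding genes of its arm.

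The MHC list had a peak in 1 of 24 genes in OMM2.3 and in 3 of 24 in 92.1, with no gene in both. These were 4.17% and 12.5%, where all coding genes of the short arm gave 46.4% and 64.8%. The OMM2.3 peak was at HLA-DQA1, which encodes a class II chain. Of the 92.1 peaks, 1 was at HLA-F, which encodes a class I heavy chain, and 1 at HLA-DQB2, a class II gene. The peptide transporter genes TAP1 and TAP2 and the proteasome genes PSMB8 and PSMB9 had none. The histone cluster, which supplies core and linker histones in S phase, had a peak in 14 of 55 genes in OMM2.3, 25.5% (14.7 to 39.0), and in 38 of 55 in 92.1, 69.1% (55.2 to 80.9), beside the 46.4% and 64.8% of all coding genes of the short arm. Per Mb of gene span it had 35.9 and 167 peaks. Its genes stand so close that neighbours share peaks, and their median span with flanks was 6.49 kb.

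Outside these lists the short-arm genes with the most peaks were long. PHACTR1, a regulator of actin and phosphatase 1, had 27 peaks in OMM2.3 and 64 in 92.1, and CDKAL1, which encodes a tRNA-modifying enzyme, had 19 and 91. FARS2, which encodes the mitochondrial phenylalanyl-tRNA synthetase, had 19 and 31, and SUPT3H, a subunit of SAGA-type complexes, had 12 and 63. Per Mb of span PHACTR1 had 46.5 OMM2.3 peaks and 110 of 92.1, and CDKAL1 had 27.0 and 129, so these genes lay around the density of their arm.

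**Figure D5:**
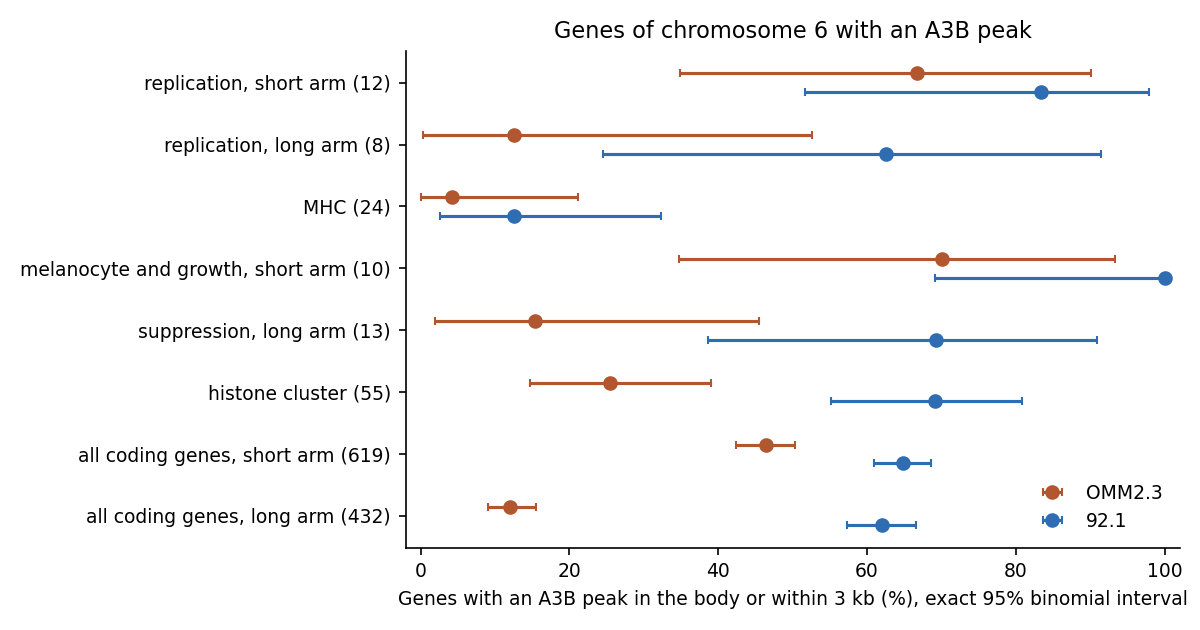
Percent of protein-coding genes with at least 1 A3B peak in the body or within 3 kb (horizontal axis) for each list of chromosome 6 genes, number of genes in brackets, with exact 95% binomial intervals, OMM2.3 and 92.1 with 1 library each. In OMM2.3 the lists of the long arm lie at 12 to 15.4% and in 92.1 at 62 to 69.2%, while the MHC is low in both.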

How the data were processed

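The authors fixed cells with formaldehyde, sheared the chromatin and sequenced paired ends. The submitters' processing notes name FastQC 0.11.9, Bowtie2 2.2.5, MACS2 2.2.7.1 and GRCh38. The deposited peak lists give a fold enrichment (a ratio over IgG), −log10 p and −log10 q values, an integer score and the summit of each peak, in lists that reach down to a p of 0.05 with no filter on q. Read depth was not given in the sources used here. Fragments and IgG background were recovered from the fold, taken as (fragments + 1)/(background + 1), and the p-value of a Poisson count, with fragments scaled by 0.867 in OMM2.3 and unscaled in 92.1. This reached the deposited −log10 p to within 0.002 for 99.993% of peaks in both lists. Peaks were placed by their summits in windows, and densities are per Mb outside assembly gaps. Genes were GENCODE release 44. Copies were counted for 32-base words around summits in the reference. Intervals were exact Poisson, binomial or conditional ones (Python 3.11.15, scipy 1.17.1). Only the recovery of fragments and background and the interval of a ratio of densities were tried on simulated data.

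The members, the gene lists and the named regions (the 3 strongest peaks per arm and line, the 3 strongest shared pairs per arm, the extreme windows and the 3 genes richest in peaks) were chosen with earlier results of these data known. A few of the named genes and regions are not reported here. No result of a test across features is given, since each group held 1 library. Libraries of the IgG groups entered only through the peak calls. The alternatives tried were stricter p and q thresholds, 8 or more fragments, leaving out the centromere, the MHC, the first 6 Mb or the long arm before 68 Mb, GC bins, unique sequence, other window sizes and summaries, other promoter definitions and a stricter overlap.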

Additional observations from a re-analysis of the deposited data

Results flagged for a closer look

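Peaks lay on alternate MHC sequences of chromosome 6, which the comparisons of the arms did not use. The 7 alternate sequences, 33.1 Mb in all, held 27 peaks in OMM2.3, or 0.815 per Mb (exact Poisson interval 0.537 to 1.19), and 74 in 92.1, or 2.23 per Mb (1.75 to 2.81). The same region of the chromosome itself, GABBR1 to KIFC1, had 3 and 13 peaks, or 0.778 per Mb (0.161 to 2.27) and 3.37 per Mb (1.80 to 5.77), so per Mb the intervals of chromosome and alternates overlap in both lines. No alternate peak had a q of at most 0.05, and here too the IgG library entered only through the peak calls.

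The density of the first 6 Mb lay on opposite sides of that of the next stretch in the 2 lines. Its density was 1.05 times that of 6 to 29 Mb in OMM2.3, with an interval that includes equality, and 0.617 times in 92.1. With 1 library each, this difference was not tested.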

How the results depend on the processing

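Across 15 results and 60 alternatives, 19 values stayed within the counting interval, spread or 1 window width of the reported value, 37 moved beyond it and 4 changed direction.

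The short to long arm ratio was above 1 under every alternative that gave a value. In OMM2.3 it moved from 13.8 to 22.2 at p of at most 1e-05, 87.6 at 8 or more fragments, 16.6 without 3 Mb either side of the boundary and 16.6 in single-copy sequence, 33 as a median of 1 Mb windows, and 25.9 with the long arm from 68 Mb on, an alternative chosen after seeing the data, as was leaving out the first 6 Mb. In 92.1 it moved from 7.62 to 3.70 at q of at most 0.05 (3 peaks), 30.9 at p of at most 1e-05, 92.6 at 8 or more fragments, 8.13 without the MHC and 8.83 as a median of 1 Mb windows. With q the OMM2.3 ratio has no value, since no long-arm peak is left. The 92.1 ratio over that of OMM2.3, 0.554, reversed to 1.39 at p of at most 1e-05 and 1.06 at 8 or more fragments, and moved to 0.470 without 3 Mb either side of the boundary, 0.471 in single-copy sequence and 0.302 with the long arm from 68 Mb on. The long arm holds 1 to 13 peaks per line at these thresholds, and the cause of the reversals was not tested.

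Against the other autosomes, the short arm reversed at q of at most 0.05, to 0.685 in OMM2.3 and 0.440 in 92.1, with 3 and 2 peaks. In OMM2.3 it moved to 1.34 at p of at most 1e-05 and 1.89 against the median of 5 Mb windows, and the long arm to 0.0604 and 0.137. In 92.1 the long arm moved to 0.119 with q and 0.0642 with p.

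Shared places were 0% in both lines at either threshold, of 3 to 53 peaks, and 4.0% in OMM2.3 and 1.27% in 92.1 at an overlap of 50% of the shorter peak. Promoter peaks were 0% in both lines with q, 0% in OMM2.3 and 11.3% in 92.1 with p, 7.69% and 7.27% within 1 kb, and 9.67% and 9.28% at protein-coding genes. The widest step in density lay at 28 Mb in both lines with 2 Mb windows and at 59.8 Mb in OMM2.3 with 10 Mb windows.

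No paired analysis was possible because there was a single A3B library per line. Read depth was not given, so how far it enters the direct comparisons of peak numbers between the lines cannot be told.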
